A study of Mus musculus with 6 samples.

Results

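The genes described here are 40 genes of endothelial cells and of angiogenesis, chosen by name: markers found on most endothelial cells, genes of arterial identity and Notch signalling, lymphatic genes, and the growth factors and receptors that direct vessel growth. On the arrays, 39 of the 40 were matched by gene name, through 71 of 41174 probes, and 37 of them were tested. RNA from whole hearts of 12-week-old mice was measured in 3 WT and 3 TG-PKR1 animals, with 1 Agilent array of a single dye per heart. TG-PKR1 mice overexpress PKR1, the receptor of the prokineticin peptides, in cardiomyocytes, from a transgene under the alpha myosin heavy chain promoter. Both groups came from a C57BL6/J background, and no other allele or agent is named for either. The comparison asks whether the genes of the vessel wall differ in heart RNA when this receptor is overexpressed in the neighbouring muscle cells.

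Endothelial cells line every vessel of the heart, and the capillaries between the cardiomyocytes hold most of them. VEGF ligands bind tyrosine kinase receptors on these cells and drive growth and sprouting, while angiopoietins act through the receptor Tie2 on the stability of the vessel. Notch signalling restrains sprouting and sets arterial against venous identity, and transcription factors of the ETS and SOX families keep the endothelial programme active.

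Values are normalized log2 fluorescence signals, and a difference is the mean of the TG-PKR1 hearts minus the mean of the WT hearts on this scale. The hearts of each group are numbered 1 to 3, and the numbers carry no pairing. Labels do not say more of how the animals were bred or sampled, so p-values measure the spread between these hearts only. Prokr1, which encodes PKR1, had a probe that was well above background on 0 of 6 arrays, so the genotypes could not be checked by it. Of 12 cardiomyocyte markers, 12 were well above background on all arrays. The 6 arrays differed in how they had been scanned. In the headers of WT 1, TG-PKR1 2 and TG-PKR1 3 the low-gain scan was scaled by 8.57 to 8.73, and in those of WT 2, WT 3 and TG-PKR1 1 it was scaled by 1. The 75th percentile of the spot signals over the local background was 11.4 to 14.1 on the former 3 arrays and 2.08 to 3.97 on the latter 3. Both kinds of array held both groups, so values are also given within each. WT 1 was the only WT heart of the former kind, and TG-PKR1 1 the only TG-PKR1 heart of the latter. Each difference within a kind thus rests on a single heart in 1 of the groups, and no test was made of it. One slide carried both WT 2 and TG-PKR1 1, and the other 4 arrays lay on slides of their own.

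None of the 37 genes passed the threshold of an adjusted p under 0.05 in limma with Benjamini-Hochberg adjustment: 0 were called higher and 0 lower in TG-PKR1 hearts. Over all 20000 probes tested, 0.095% were called, and all of these were lower in TG-PKR1 hearts. SAM, the test named in the study's methods, called 0 of the 37 genes too, against 0.271% of all probes. At an unadjusted limma p under 0.05, 1 gene was higher (Erg) and 0 were lower. Of all probes, 2.38% passed that p, with 0.715% higher and 1.66% lower. The hearts of the groups did not overlap for 2 genes, Robo4 and Ephb4, both higher in TG-PKR1 hearts. Among all probes with a value in every heart, 5.41% did not overlap, with 2.68% above and 2.73% below the WT hearts. The limma adjusted p of each of the 37 genes was 1, and it is not repeated gene by gene. The means were higher in TG-PKR1 hearts for 24 genes and lower for 13, where 58.2% of all probes had the higher mean in TG-PKR1 hearts. The median difference was 0.07 over the 37 genes and 0.03 over all probes. In bulk heart RNA, fewer cells of a type and less RNA per cell cannot be told apart.

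The size of the differences that these arrays could have missed is given by the intervals. Differences of the 37 genes lay between -0.28 (Fli1) and 0.44 (Erg). The 95% confidence interval stayed within a 2-fold change either way for 37 of 37 genes, and for 94.3% of all probes. It stayed within a 1.5-fold change for 14 of the 37. The median width of the interval to either side was 0.48 for these genes and 0.42 for all probes. The median SD between hearts was 0.28 in WT and 0.27 in TG-PKR1 for these genes, against 0.21 in both groups for all probes.

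**Figure D1:**
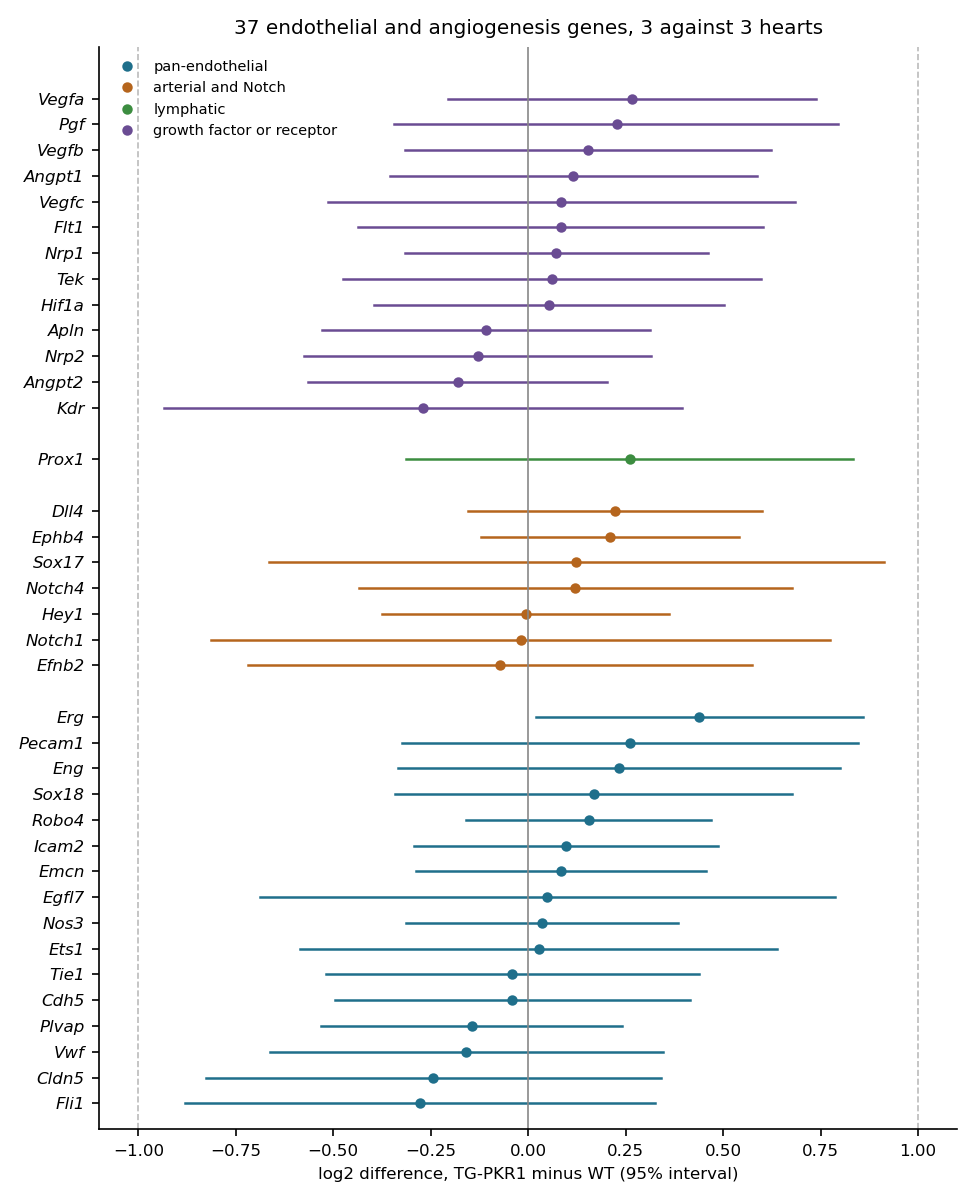
Difference of TG-PKR1 minus WT hearts on the log2 scale for the 37 genes tested, grouped by role, with the 95% confidence interval from limma (3 hearts per group) and dashed lines at a 2-fold change either way. The interval includes 0 for every gene but Erg, whose interval runs from 0.02 to 0.86.

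The pan-endothelial genes were the largest group, with 16 genes tested. Their means were higher in TG-PKR1 hearts for 10 and lower for 6, with a median difference of 0.04 (-0.06 without WT 2) and a range of -0.28 to 0.44. Their 3 hearts did not overlap between groups for 1 of the 16, Robo4, which was higher in TG-PKR1 hearts.

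Robo4 is a receptor of the roundabout family that is found on endothelial cells and stabilizes the vessel. Its probe lies on chromosome 9 of mm8 from 37163623 to 37163682. The signal was 12.22, 12.20 and 12.35 in WT 1 to 3 and 12.44, 12.40 and 12.39 in TG-PKR1 1 to 3. Each TG-PKR1 heart thus lay above each WT heart, and the gap between the groups was 0.04 (TG-PKR1 3 over WT 3). The difference was 0.15 (SE 0.14, 95% interval -0.16 to 0.47), a 1.11-fold ratio. A two-sided exact permutation test gave p = 0.1, the smallest that 3 against 3 hearts allow. Any gene whose hearts do not overlap gets this p, so it adds nothing to the lack of overlap. Within the arrays with a scaled low-gain scan the difference was 0.18, and within the others 0.17.

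Erg is an ETS transcription factor that maintains the expression of endothelial junction genes. Its probe lies on chromosome 16 of mm8 from 95468434 to 95468493. The signal was 9.97, 9.88 and 10.23 in WT 1 to 3 and 10.44, 10.22 and 10.74 in TG-PKR1 1 to 3. TG-PKR1 2 lay just below WT 3, so the groups overlapped by this pair alone, and TG-PKR1 3 was the highest heart. The difference of 0.44 (SE 0.18), a 1.36-fold ratio, was the largest of the 37, and its unadjusted limma p was 0.042. A two-sided exact permutation test gave p = 0.2. The difference was 0.51 within the arrays with a scaled low-gain scan and 0.38 within the others, and 0.30 to 0.56 with any 1 heart left out. A second probe of Erg was dim, well above background on 4 of 6 arrays, outside the 20000, and differed by 0.07 (SE 0.13).

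Promoter sequences are shown for Robo4, Erg and Ephb4, a receptor that marks veins and is described further on. These were the genes whose hearts were parted or whose unadjusted limma p was below 0.05. The sequences are the 200 bases before the start site in the RefSeq promoter table of GRCm38.p6, 5′ to 3′ on the strand of the gene. Capitals mark any of 6 short motifs searched on both strands: AGGAAG for ETS factors, GTGGGAA for RBPJ, which acts for Notch, ACAAAG for SOX factors, AGATAA for GATA factors, ACGTG for the hypoxia response and CACCC for KLF factors. GTGGGAA and AGGAAG share the letters GGAA. Robo4 lies on the plus strand, at chr9:37401772-37401971, Erg on the minus strand, at chr16:95586594-95586793, and Ephb4 on the plus strand, at chr5:137349909-137350108.
Robo4: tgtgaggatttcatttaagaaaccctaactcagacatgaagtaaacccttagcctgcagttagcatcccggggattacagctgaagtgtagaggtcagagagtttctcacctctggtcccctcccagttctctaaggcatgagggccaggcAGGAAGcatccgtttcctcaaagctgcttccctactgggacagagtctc
Erg: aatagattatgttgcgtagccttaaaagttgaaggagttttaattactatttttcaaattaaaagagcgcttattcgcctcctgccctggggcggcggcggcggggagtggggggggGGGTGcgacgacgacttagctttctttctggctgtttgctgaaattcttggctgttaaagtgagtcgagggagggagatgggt
Ephb4: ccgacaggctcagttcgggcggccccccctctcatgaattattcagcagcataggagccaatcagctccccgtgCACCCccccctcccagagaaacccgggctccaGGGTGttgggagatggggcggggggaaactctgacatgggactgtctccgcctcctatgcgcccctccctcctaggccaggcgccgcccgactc
The Robo4 stretch holds 1 match, AGGAAG, whose first base lies 49 bases before the start site. The Erg stretch holds the KLF letters once, 83 bases before the start, and the Ephb4 stretch holds them at 126 and 94 bases before it. Of the same 200-base stretch in 27025 genes, 24.5% hold the ETS letters and 44.9% the KLF letters, so matches of this kind are common. RBPJ, SOX, GATA and hypoxia letters are absent from the 3 stretches, and 4.26%, 13.3%, 7.98% and 14.0% of all stretches hold them. The table lists 3 start sites for Erg, and the first was used. A count of motifs over the whole list would be void, because 26 of the 40 genes (65%) have a promoter in the table, under the 80% set as a minimum. A match is a run of letters, and binding was not measured.

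The endothelial markers Pecam1, Cdh5 and Vwf differed with either sign, and the groups overlapped for each of them. Pecam1 (CD31) is an adhesion molecule of endothelial junctions, and its probe lies on chromosome 11 of mm8 from 106497165 to 106499018. Its signal was 9.06, 8.28 and 8.25 in WT hearts and 9.03, 8.44 and 8.91 in TG-PKR1 hearts. WT 1 was the highest heart, and the groups overlapped. The difference of 0.26 (SE 0.26, 95% interval -0.32 to 0.85) turned to -0.38 within the arrays with a scaled low-gain scan and was 0.76 within the others. Whether the scan had a part in it was not tested beyond these values.

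Cdh5, or VE-cadherin, holds endothelial cells together at their junctions. Its signal was 11.28, 10.91 and 10.78 in WT hearts and 10.72, 11.25 and 10.87 in TG-PKR1 hearts. The highest and the lowest value, in WT 1 and TG-PKR1 1, enclosed the others with no order by group. The difference was -0.04 (SE 0.20), and it was 0.09 when arrays were scaled to their 75th percentile instead of by loess. Vwf, the von Willebrand factor stored by endothelial cells for clotting, had signals of 12.24, 11.74 and 12.22 in WT hearts and 12.27, 11.59 and 11.85 in TG-PKR1 hearts. TG-PKR1 1 was the highest heart and TG-PKR1 2 the lowest. Its difference was -0.16 (SE 0.22, 95% interval -0.66 to 0.34), -0.52 within the arrays with a scaled low-gain scan and 0.29 within the others.

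Among genes with lower means, Fli1, an ETS factor of endothelial and blood cells, had signals of 10.13, 10.51 and 10.08 in WT hearts and 9.61, 10.57 and 9.71 in TG-PKR1 hearts. TG-PKR1 1 and 3 were below all WT hearts, while TG-PKR1 2 was the highest of the 6. The difference was -0.28 (SE 0.26), 0.01 within the arrays with a scaled low-gain scan and -0.68 within the others. Cldn5, a tight junction protein, had signals of 9.98, 9.29 and 10.19 in WT hearts and 9.28, 9.61 and 9.84 in TG-PKR1 hearts, with a difference of -0.24 (SE 0.26). WT 2 and TG-PKR1 1 were the low hearts, nearly level, and WT 3 was the highest. The difference was -0.51 without WT 2 and -0.06 without WT 3. Plvap, which forms the diaphragms of caveolae and fenestrae, had signals of 9.15, 8.90 and 9.10 in WT hearts and 9.16, 8.79 and 8.76 in TG-PKR1 hearts, with a difference of -0.15 (SE 0.17). TG-PKR1 1 was its highest heart, so its groups overlapped too, and the difference was -0.38 within the arrays with a scaled low-gain scan and 0.17 within the others.

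The other 8 pan-endothelial genes overlapped between groups and differed by -0.04 to 0.23. Eng, a co-receptor for TGF-beta ligands, differed by 0.23 (SE 0.25), and Sox18, a SOX factor of vessel development, by 0.17 (SE 0.22). Icam2, an adhesion molecule for leukocytes, differed by 0.10 (SE 0.17), Emcn, a sialomucin of capillaries and veins, by 0.08 (SE 0.16), and Egfl7, a protein that endothelial cells secrete, by 0.05 (SE 0.32). Nos3, the endothelial nitric oxide synthase, differed by 0.03 (SE 0.15) and had one of the narrower intervals, -0.31 to 0.38. The ETS factor Ets1 differed by 0.03 (SE 0.27) and Tie1, an orphan receptor related to Tie2, by -0.04 (SE 0.21). Esam, a junction molecule, was not on the arrays by name, and it was matched through its RefSeq transcript to a probe called Esam1. Its signal was 10.64, 10.68 and 10.33 in WT hearts and 10.69, 10.65 and 10.73 in TG-PKR1 hearts, a difference of 0.14 (SE 0.15), and the groups overlapped. It is not counted among the 37.

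**Figure D2:**
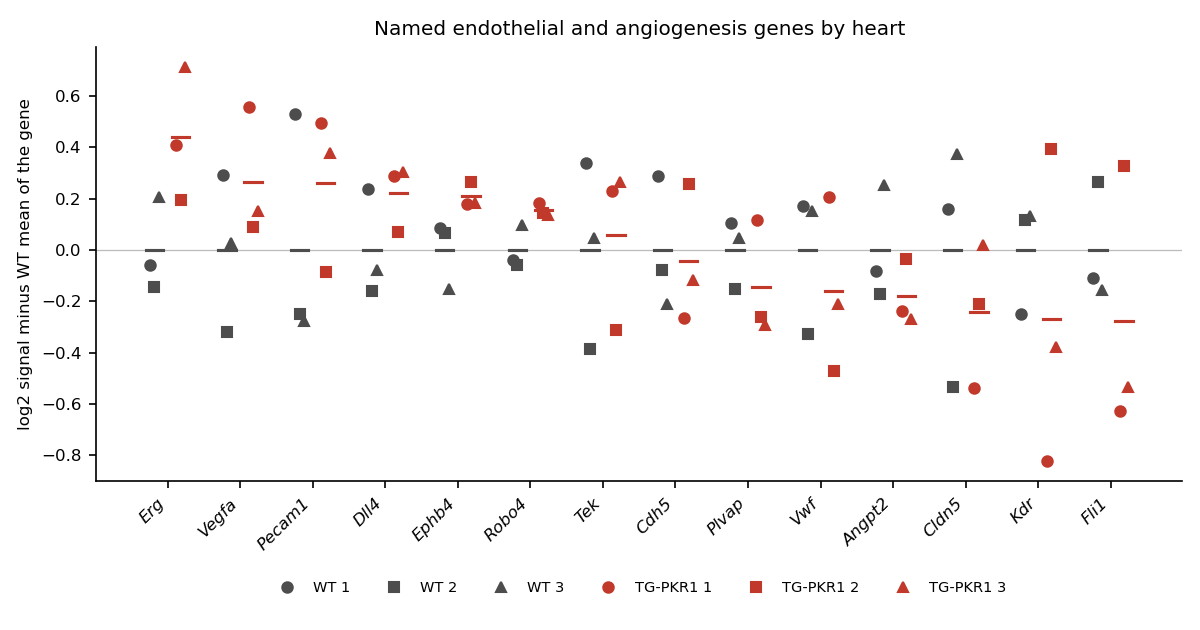
Normalized log2 signal of each heart minus the WT mean of the gene for 14 genes, ordered by their difference, with WT hearts in grey, TG-PKR1 hearts in red and a bar at each group mean (n = 3). The TG-PKR1 hearts lie above every WT heart for Ephb4 and Robo4, and the groups overlap for the other 12 genes.

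Of the 7 genes of arterial identity and Notch signalling, 4 had higher and 3 lower means in TG-PKR1 hearts, with a median difference of 0.12 (-0.11 without TG-PKR1 2) and a range of -0.07 to 0.22. Ephb4, the receptor that marks veins and binds the arterial ligand ephrin-B2, was the one whose hearts did not overlap. Its probe lies on chromosome 5 of mm8 from 137603849 to 137603908. The signal was 8.28, 8.26 and 8.04 in WT 1 to 3 and 8.37, 8.46 and 8.38 in TG-PKR1 1 to 3. Every TG-PKR1 heart was above every WT heart, and the TG-PKR1 hearts lay close together. The difference was 0.21 (SE 0.14, 95% interval -0.12 to 0.54), a 1.16-fold ratio, and 0.14 and 0.22 within the arrays with and without a scaled low-gain scan. A two-sided exact permutation test gave p = 0.1, which again follows from the lack of overlap. A dimmer probe of Ephb4, outside the 20000, differed by -0.02 (SE 0.09), and its groups overlapped.

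Dll4, the Notch ligand of arterial and sprouting tip cells, had signals of 7.83, 7.43 and 7.51 in WT hearts and 7.88, 7.66 and 7.90 in TG-PKR1 hearts. WT 1 lay above TG-PKR1 2, which was the only overlap. The difference was 0.22 (SE 0.16, 95% interval -0.15 to 0.60), with -0.05 within the arrays with a scaled low-gain scan and 0.41 within the others. Efnb2, which encodes ephrin-B2, differed by -0.07 (SE 0.28). Of the receptors, Notch1 differed by -0.02 (SE 0.35) and Notch4, found mainly in endothelium, by 0.12 (SE 0.24). Hey1, a transcriptional target of Notch, differed by -0.01 (SE 0.16), with values of 10.43 to 10.83 over the 6 hearts. Sox17, a SOX factor of arterial endothelium, differed by 0.12 (SE 0.34), and WT 2 and TG-PKR1 2, at 9.60 and 9.74, stood apart from the other 4 hearts at 8.61 to 8.79.

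The lymphatic genes were measured less well. Prox1, the factor that sets lymphatic identity and is also expressed in cardiomyocytes, was the only one of 3 among the 20000 probes. Its signal was 9.24, 8.94 and 9.496 in WT hearts and 8.98, 9.61 and 9.87 in TG-PKR1 hearts. TG-PKR1 1 lay among the WT hearts and the other TG-PKR1 hearts above them, and the difference was 0.26 (SE 0.25). Another, dimmer probe of Prox1 gave 6.48, 6.41 and 6.32 in WT hearts and 6.58, 6.59 and 6.78 in TG-PKR1 hearts, which did not overlap, with a difference of 0.25 (SE 0.14). Flt4 (VEGFR3), the receptor of VEGF-C, and Pdpn (podoplanin), a membrane glycoprotein of lymphatic endothelium, were well above background on 5 of 6 arrays and fell outside the 20000. In a fit over all 41174 probes they differed by -0.07 (SE 0.19) and 0.02 (SE 0.10), and their groups overlapped. With 1 gene tested, no median is given for lymphatic genes.

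Of the 13 growth factors, receptors and their regulators, 9 had higher and 4 lower means in TG-PKR1 hearts, with a median difference of 0.07 (-0.04 without TG-PKR1 2) and a range of -0.27 to 0.27. The groups overlapped for all 13. Among the ligands, Vegfa, the main driver of vessel growth, had signals of 11.26, 10.65 and 10.997 in WT hearts and 11.53, 11.06 and 11.12 in TG-PKR1 hearts. WT 1 lay above TG-PKR1 2 and 3, and WT 2 was the lowest heart. The difference was 0.27 (SE 0.21, 95% interval -0.21 to 0.74). It was -0.17 within the arrays with a scaled low-gain scan and 0.70 within the others. Vegfb, a VEGF abundant in heart muscle, differed by 0.15 (SE 0.21), Vegfc, the lymphatic VEGF, by 0.09 (SE 0.26), and Pgf, placental growth factor, by 0.23 (SE 0.25). Apln, the peptide apelin, differed by -0.11 (SE 0.18).

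The angiopoietins differed with opposite signs, both within the spread. Angpt1, which activates Tie2 from cells around the vessel, differed by 0.12 (SE 0.21). Angpt2, which endothelial cells release and which can oppose Angpt1, had signals of 7.77, 7.68 and 8.11 in WT hearts and 7.62, 7.82 and 7.58 in TG-PKR1 hearts, a difference of -0.18 (SE 0.17, 95% interval -0.57 to 0.20). TG-PKR1 1 and 3 were the lowest hearts, and TG-PKR1 2 lay above WT 1 and WT 2. Its difference was negative in all 20 settings run, at -0.28 to -0.05.

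Of the receptors, Kdr (VEGFR2, Flk-1), which carries most of the VEGF-A signal, had the lowest difference and the widest spread. Its probe lies on chromosome 5 of mm8 from 76214981 to 76215040, and its signal was 11.22, 11.58 and 11.60 in WT hearts and 10.64, 11.86 and 11.09 in TG-PKR1 hearts. The highest and the lowest heart were both TG-PKR1, with an SD of 0.61 there against 0.22 in WT. The difference was -0.27 (SE 0.29, 95% interval -0.93 to 0.40), and it was 0.26 within the arrays with a scaled low-gain scan, -0.95 within the others and 0.01 without TG-PKR1 1. Tek (Tie2), the angiopoietin receptor, had signals of 8.99, 8.27 and 8.70 in WT hearts and 8.88, 8.34 and 8.92 in TG-PKR1 hearts. WT 2 and TG-PKR1 2 were its low hearts, and the difference was 0.06 (SE 0.24, 95% interval -0.48 to 0.60), at -0.36 and 0.40 within the arrays with and without a scaled low-gain scan. Flt1 (VEGFR1), which binds VEGF-A and limits its action, differed by 0.08 (SE 0.23). The VEGF and semaphorin co-receptors Nrp1 and Nrp2 differed by 0.07 (SE 0.17) and -0.13 (SE 0.20), and Hif1a, the oxygen-regulated factor upstream of Vegfa, by 0.05 (SE 0.20).

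The hearts of a group also differed among themselves. WT 2 was the lowest of the 6 hearts for 16 of the 37 genes and the highest for 0, while over all probes it was the lowest for 21.2% and the highest for 7.06%. Its array also had the lowest signal over background, 2.08, and the part of this in its low values was not tested. WT 2 was the lowest heart for 10 to 19 of the genes, and the highest for 0 to 3, under 11 settings of signal, normalization and filter. WT 1 and TG-PKR1 2 were each the highest heart for 10 of the 37 genes, and over all probes they were the highest for 22.9% and 26.7%. These counts moved with the setting, from 4 to 11 for WT 1, from 5 to 12 for TG-PKR1 2 and from 3 to 11 for TG-PKR1 1. Some markers of lung epithelium stood apart in WT 1 or in TG-PKR1 2. Sftpc was 10.77 and Sftpa1 7.28 in WT 1, against 5.83 to 5.995 and 5.79 to 5.98 in the other hearts. Scgb1a1 was 8.92 in TG-PKR1 2, against 6.15 to 6.43 in the others. These lung probes fell outside the 20000, and their part in the values of the endothelial genes was not tested. After the WT mean of a gene was subtracted, the medians over the 37 genes were 0.09, -0.16 and 0.03 in WT 1 to 3 and 0.01, 0.10 and 0.10 in TG-PKR1 1 to 3. The TG-PKR1 medians thus spanned 0.01 to 0.10, and WT 1 and WT 3 lay inside that span. Over all probes the same medians were -0.03 to 0.06 in the 6 hearts. The median difference of 0.07 over the 37 genes was -0.07 within the arrays with a scaled low-gain scan, 0.09 within the others and -0.01 without WT 2.

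**Figure D3:**
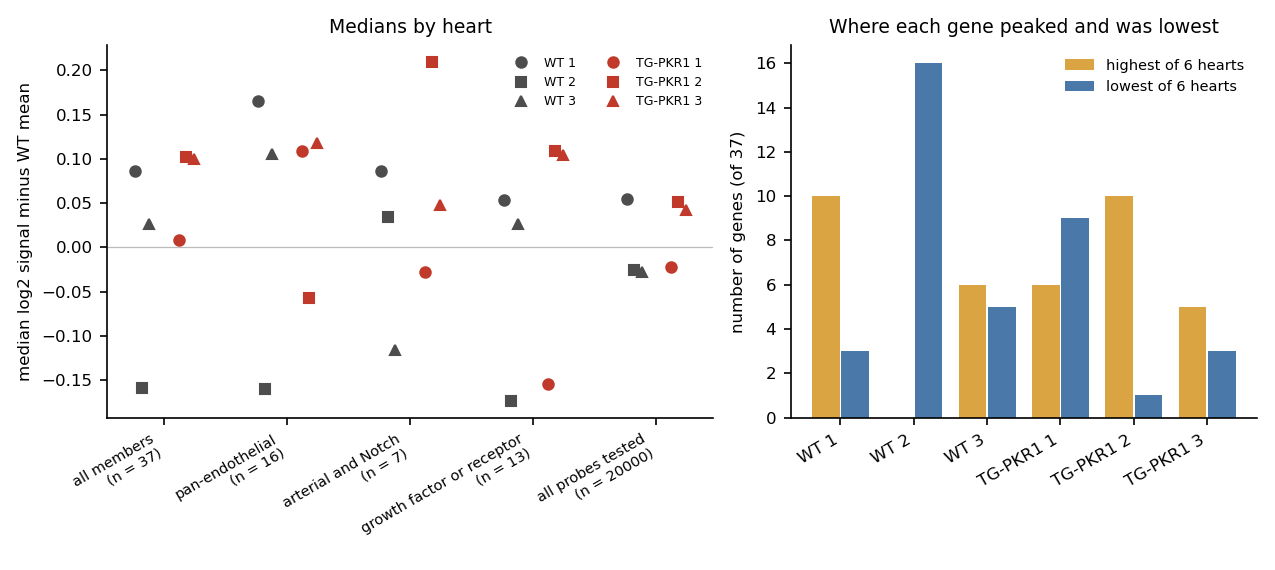
Left, the median over each group of genes of the log2 signal minus the WT mean, 1 point per heart (WT grey, TG-PKR1 red), beside all 20000 probes; right, the number of the 37 genes for which each heart was the highest or the lowest. WT 2 was the lowest heart for 16 genes and the highest for 0, and in all lists drawn the WT and TG-PKR1 hearts overlap.

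Spots repeated on an array show how much of the spread lies within an array. Probes of Pecam1, Nos3, Notch1 and Kdr are printed 10 times on each array. The median SD between the spots of a probe on an array was 0.13 for Pecam1, 0.12 for Nos3, 0.11 for Notch1 and 0.13 for Kdr. The SD between hearts was 0.46 in WT and 0.31 in TG-PKR1 for Pecam1, 0.37 and 0.72 for Notch1, and 0.22 and 0.61 for Kdr, above the spot SD in both groups. For Nos3 it was 0.18 in WT hearts and 0.06 in TG-PKR1 hearts, against 0.12 between single spots. A heart's value is a mean of up to 10 spots, which spot noise moves less than it moves a single spot. The spot SD thus overstates the spot noise in the heart values, and that part was not estimated. The spots of an array share one RNA and one hybridization, so the comparison sets spot noise alone against the spread of hearts and arrays.

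More than 1 probe was tested for 14 of the genes, and for 7 of them (Cdh5, Ets1, Flt1, Notch1, Nrp1, Tek and Vwf) the probes differed in sign. The differences of the probes of 1 gene were 0.21 apart in the median and 0.50 at most, for Ets1, whose 4 probes gave -0.12 to 0.38. The second probe of Cdh5 differed by 0.30 (SE 0.24), against -0.04 for the brighter one. The 3 probes of Vegfa differed by 0.13, 0.27 and 0.39, the 3 of Prox1 by 0.09, 0.25 and 0.26, and the pair of Sox17 by 0.12 and 0.39. Vegfb (0.15 and 0.25) and Angpt1 (0.09 and 0.12) also had probes above 0 alone, and Fli1 (-0.28 and -0.01) and Apln (-0.11 and -0.03) probes below 0 alone. No probe of these 7 genes passed the threshold in limma. For 8 of the 14 genes the probes did not have the same highest heart.

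**Figure D4:**
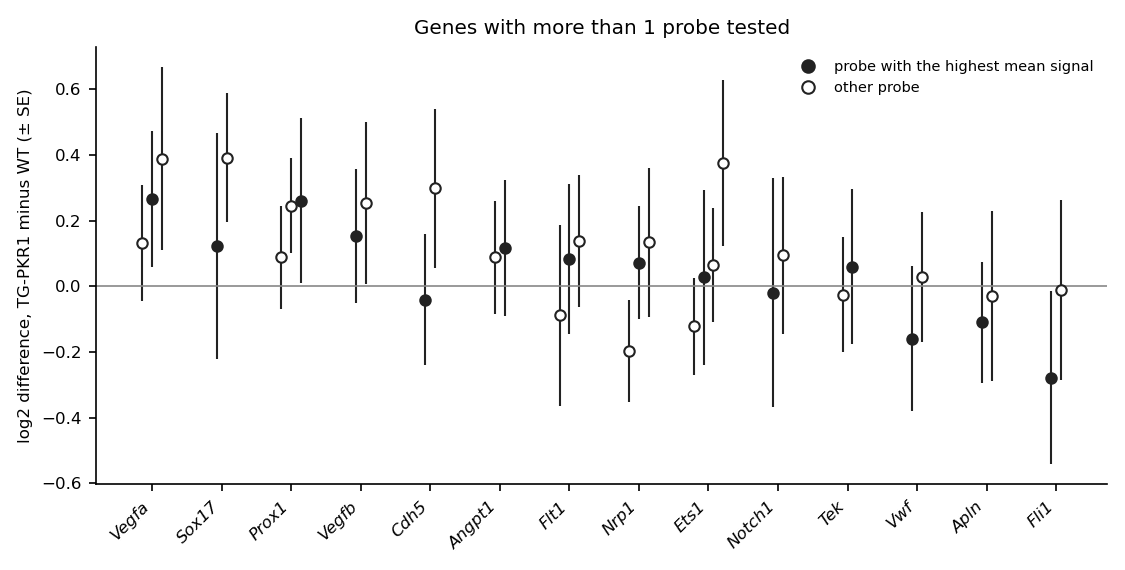
Difference of TG-PKR1 minus WT hearts (± SE, 3 hearts per group) for each tested probe of the 14 genes with more than 1, filled for the probe with the highest mean signal. The probes of Vegfa, Sox17, Prox1, Vegfb and Angpt1 are all above 0, those of Fli1 and Apln all below 0, and those of Ets1 run from -0.12 to 0.38.

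Other genes of the same pathways were taken from lists of their own. Of 150 such genes with a probe, 137 were tested, and limma with Benjamini-Hochberg adjustment and SAM each called 0 of them. At an unadjusted limma p under 0.05, 1 was higher and 2 were lower in TG-PKR1 hearts. The means were higher for 80 and lower for 57, with a median difference of 0.03. Ldha had no value in TG-PKR1 1, so SAM and the overlap of hearts did not cover it. Of 32 other endothelial genes, such as Cd34, 12 had higher and 20 lower means (median -0.05). Of 21 kinases and other mediators of VEGF signalling, 16 had higher and 5 lower means (median 0.09), and of 17 genes of the hypoxia response 11 had higher and 6 lower means (median 0.06). Of 21 other Notch and ephrin genes the split was 12 to 9, of 10 other lymphatic and venous genes 6 to 4, of 23 other angiogenic factors and receptors 16 to 7, and of 14 angiogenesis inhibitors 8 to 6.

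The 4 genes named from these lists were those with the smallest unadjusted p in each direction. Angptl4, a secreted inhibitor of lipoprotein lipase that also acts on vessels and is made by adipocytes and cardiomyocytes, had signals of 11.87, 10.71 and 11.02 in WT hearts and 10.54, 9.61 and 10.19 in TG-PKR1 hearts. Every TG-PKR1 heart lay below every WT heart, and the difference was -1.09 (SE 0.33, 95% interval -1.84 to -0.34, limma adjusted p = 1). It was -1.97 within the arrays with a scaled low-gain scan and -0.33 within the others. Met, the receptor of hepatocyte growth factor, had signals of 7.25, 7.16 and 7.38 in WT hearts and 6.91, 6.79 and 6.49 in TG-PKR1 hearts, again with no overlap. Its difference was -0.53 (SE 0.17, limma adjusted p = 1), and -0.61 and -0.35 within the arrays with and without a scaled low-gain scan. Over the 20 settings run the difference of Met was -1.01 to -0.24, with -1.01 for the processed signal with 75th percentile scaling. Bmp6, a ligand of the BMP family, and Ctgf, a matrix protein of the CCN family, differed by 0.51 (SE 0.22) and 0.47 (SE 0.24), and their groups overlapped. Within the arrays with a scaled low-gain scan Bmp6 differed by 0.07 and Ctgf by 0.02, and within the others by 0.86 and 1.08. Without TG-PKR1 1 the difference of Ctgf was 0.21. Among the 137 genes, Ldha aside, the hearts did not overlap for 5, 2 above and 3 below the WT hearts, where 5.41% of all probes did not overlap. Beside Angptl4 and Met these were Timp3, Col4a3 and Pf4, at differences of 0.31, 0.17 and -0.27.

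**Figure D5:**
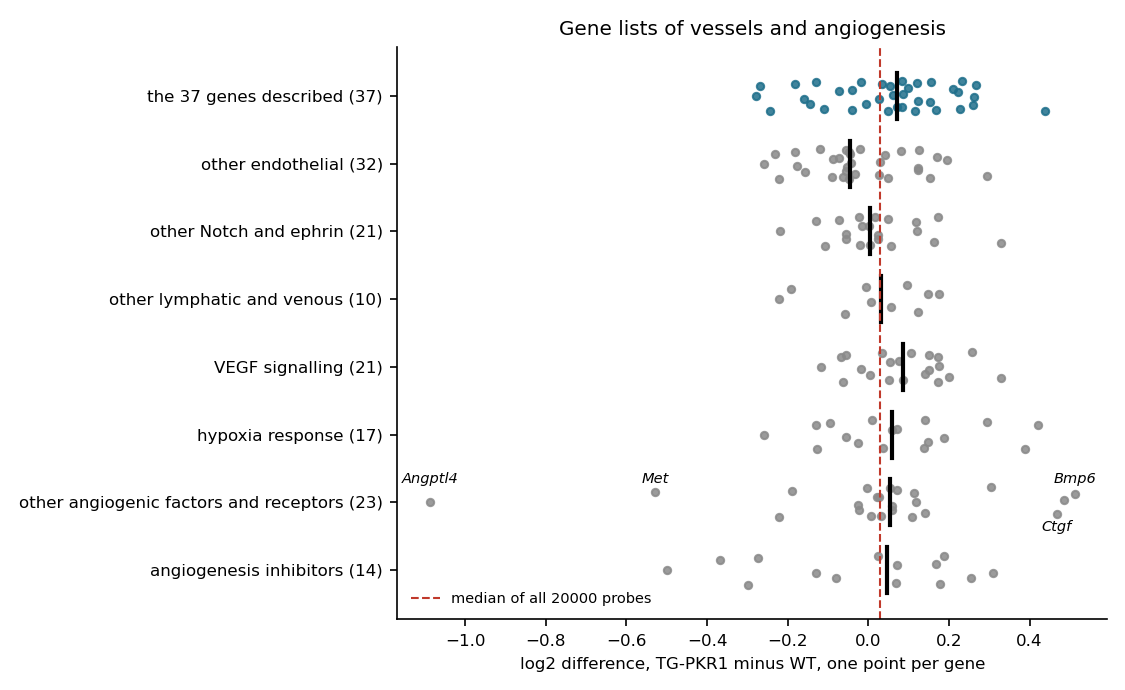
Difference of TG-PKR1 minus WT hearts for each gene tested, by list, with a black bar at the median of the list and a dashed line at the median of all 20000 probes, 0.03. The medians of the lists lie between -0.05 and 0.09, and Angptl4, at -1.09, stands apart from the other genes drawn.

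Markers of some other cells of the heart differed between the groups. Of 9 tested markers of adipocytes in general, 9 had lower means in TG-PKR1 hearts and 3 were called lower by limma (adjusted p under 0.05) and 6 by SAM, with a median difference of -1.43. Their summed signal, to which Fabp4 adds most, was 125400 to 187000 in WT hearts and 70390 to 84330 in TG-PKR1 hearts, which did not overlap. Fabp4 itself differed by -0.72 without overlap of the hearts, and neither limma nor SAM called it. Of 8 brown adipocyte markers, 7 had lower means, and 1 was called lower by limma and 4 by SAM, with a median of -0.84. Their summed signal, to which Cox7a1 and Cox8b add most, overlapped between groups, at 226500 to 355500 in WT hearts and 198800 to 254900 in TG-PKR1 hearts. Cox7a1 and Cox8b differed by -0.07 and -0.08, while Ucp1, Cidea, Elovl3 and Dio2 differed by -3.23 to -1.39 without overlap of the hearts. Prdm16 differed by -0.275, and Ppargc1a, the marker with the higher mean, by 0.49, both with overlap. The median difference was 0.07 over 12 cardiomyocyte markers and 0.18 over 12 markers of smooth muscle and pericytes, the cells around the endothelium, with 0 called in either list by limma or SAM and 0 at an unadjusted limma p under 0.05. It was -0.06 for fibroblasts, -0.11 for epicardial cells and -0.14 for macrophages and other leukocytes, again with 0 called by limma or SAM and 0 at that unadjusted p. Sftpb of lung epithelium, Cd79a of B cells and Cd8a of T cells were well above background on 0 arrays. The part of the adipocyte markers in the values of the endothelial genes and of Angptl4 was not tested.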

How the data were processed

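Heart RNA of 3 WT and 3 TG-PKR1 mice was hybridized to 6 Agilent arrays. The authors deposited the scanner's fluorescence intensity of each spot (extracted with Agilent Feature Extraction, 9.5.1.1 per the file headers), not normalized between arrays. The software's marks on each spot (control, outlier, saturated, well above background) were deposited too. A set of log2 values deposited by the authors (LOWESS against a median profile) served as an alternative.

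Here log2 median signals, without background subtraction and without control and outlier spots, were fitted by loess to the median of the 6 arrays (span 0.3, 4 iterations). Replicate spots were averaged, and 20000 probes were kept by highest median. Each gene was represented by its probe with the highest mean signal. Groups were compared by limma 3.58.1 (R 4.3.3) with Benjamini-Hochberg adjustment over all probes kept, at 0.05, by SAM (false discovery rate of 0%) and, for single genes, by two-sided exact permutation tests. The procedure was tested on simulated data. Probe positions are those of mm8 in the files, and promoters are RefSeq's (GRCm38.p6). With arrays, their number limits the precision.

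The 40 genes and the other lists were chosen with earlier results of these data known. Genes with full values were Pecam1, Tek, Kdr, Cdh5, Vwf, those without overlap of the hearts and the 5 with the smallest p in each direction; of the other lists, those past the threshold or else the 2 with the smallest p in each direction. Prox1 was given by heart as the tested lymphatic gene and Esam for its different name, and Timp3, Col4a3 and Pf4 were named, all after their values were seen. The marker lists of erythroid, skeletal muscle and lymph node cells and of immediate early genes had 0 calls by limma or SAM (1 immediate early gene lower at an unadjusted limma p under 0.05) and medians of -0.12, 0.17, 0.11 and -0.11.

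Alternatives were the processed signal with 75th percentile scaling, the mean signal, normexp (offset 50) followed by quantile normalization, quantile normalization or 75th percentile scaling alone, no removal of outlier spots, all probes, only probes well above background on at least 3 arrays, the authors' table, eBayes with trend or robust, SAM, a threshold of 0.1, probes averaged per gene, scan mode as a block or within its levels, the slide with both groups, each heart left out in turn and, added after seeing the data, loess on the profile alone.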

Additional observations from a re-analysis of the deposited data

How the results depend on the processing

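No paired analysis was possible because a single number in the titles is common to both groups (WT 2 and TG-PKR1 1, which also share a slide), and a paired fit needs at least 2 pairs. The number of arrays, 3 per group, limits the precision: the 95% interval reached beyond a 1.5-fold change for all but 14 of the 37 genes, and Angptl4, at -1.09, was not called. Signal over background was lowest for WT 2. The count of called genes was 0 in each of 66 values under the alternatives, leaving out each heart and SAM included. The median difference over the 37 genes was -0.01 to 0.10 with each heart left out in turn, and it was -0.072 within the arrays with a scaled low-gain scan (WT 1, TG-PKR1 2 and TG-PKR1 3). Without TG-PKR1 2 the arterial and Notch median became -0.11, without WT 1 0.23 and without WT 3 -0.03. The pan-endothelial median ran from -0.06 (without WT 2) to 0.09 and was -0.001 without TG-PKR1 3. The growth factor and receptor median ran from -0.04 (without TG-PKR1 2) to 0.10, and it was -0.01 without WT 2 and -0.005 without WT 3. The median over the 37 genes was below 0 without WT 2.

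Of 360 values for single genes, 342 kept their direction and 18 changed sign. Within the arrays with a scaled low-gain scan, the differences were -0.38 for Pecam1, -0.36 for Tek, 0.26 for Kdr, -0.047 for Dll4, -0.17 for Vegfa and 0.007 for Fli1. Within the other 3 arrays they were 0.29 for Vwf and 0.17 for Plvap, and within the slide with both groups 0.53 for Vwf and 0.27 for Plvap. Cdh5 was 0.089 with 75th percentile scaling, which moved the median of all probes from 0.03 to -0.02, and Tek was -0.003 in the table of the authors. With each heart left out, Cdh5 ran from -0.19 to 0.10, with 0.10 without WT 1 and 0.07 without TG-PKR1 1. Tek ran from -0.13 to 0.25, with -0.13 without WT 2, -0.02 without TG-PKR1 1 and -0.04 without TG-PKR1 3. Kdr ran from -0.60 to 0.008, with 0.008 without TG-PKR1 1. The cause was not tested. Robo4, Erg and Ephb4 kept a positive difference in all 20 settings run, at 0.11 to 0.31, 0.30 to 0.56 and 0.11 to 0.25. For Robo4 and Ephb4 the sign was fixed in advance where hearts were left out, or where scan mode or slide was held fixed. No subset of hearts can reverse groups that do not overlap. Erg had been named for its small unadjusted p. Slide as a random block was not run, since it left no residual degrees of freedom for the correlation.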
